A study of Mus musculus with 60 samples.

Results

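The 9 chromosome 8 genes *Gab1*, *Zfp330*, *Sall1*, *Cyb5b*, *Nob1*, *Dhodh*, *Cfdp1*, *Gcsh* and *Fanca* were examined for the output of their Cast and 129 alleles when ectopic Xist was induced from a chromosome that carries an extra Cast copy of them. They were chosen by the measured loss of Cast reads upon doxycycline in the clones 203b, 339 and 267, so that their values in this contrast are given as a description, without a test. The 9 members are part of 477 listed genes in the trisomic part of chromosome 8 and of 14003 genes listed in the 52 libraries used. The data are RNA-seq libraries of clones from the female F1 2-1 embryonic stem cell (ESC) line of a 129/Sv by Cast/Ei cross, which carries the doxycycline-responsive M2rtTA activator at ROSA26 on a 129 chromosome. Every clone carries an inducible Xist transgene. The ESC libraries are from cells grown in 2i+LIF, without or with doxycycline at 2 µg/ml for 5 days.

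In 3 clones termed Tg-X;8 (203b, 339 and 267) the transgene lies on the product of an X;8 translocation, in which the 129 X is fused to an additional copy of the distal part of the Cast chromosome 8. The Tg-X clones 85, 86, 109 and 190 have the same karyotype, but the transgene lies on the intact Cast X, and they serve as controls for the extra copy without Xist in *cis*. Clone 87 comes from an F1 2-1 line of normal karyotype and has the inducible promoter in place of a deleted piece of the endogenous Xist promoter on the Cast X. Each clone is 1 cell line, and clone 267 in addition carries a *Tsix*-Stop 129 allele. Clone 203b has 1 treated library where each of the other clones named so far has 2 per condition. Clones 228 and 273 and line 38, which corresponds to 55-38 of the study, carry the transgene on chromosome 12 in an F1 2-1 line with a duplicated chromosome 12 and were used only for values, as were 4 libraries of neurons from lines 20 and 38.

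X inactivation starts when Xist RNA coats the chromosome that makes it, recruits repressive complexes and removes RNA polymerase from genes in *cis*. On an autosome attached to an X, this silencing spreads to some genes and leaves others active. Genes with 2 Cast copies and 1 copy of 129 are expected to give a Cast/all ratio, the share of Cast reads among allele-specific reads, near 0.667 when all copies are equally active, and 0.5 when 1 of the Cast copies is off. In odds of Cast to 129 reads this is a loss of 50%, if the copy is off in every cell.

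The members have unrelated roles. *Gab1* encodes a docking protein of receptor tyrosine kinases, *Sall1* a zinc finger transcription factor of embryonic development and *Zfp330* a nuclear zinc finger protein. *Cyb5b* encodes the cytochrome b5 of the outer mitochondrial membrane, *Dhodh* the mitochondrial enzyme that oxidises dihydroorotate in pyrimidine synthesis and *Gcsh* the lipoate-carrying H protein of the glycine cleavage system. *Nob1* encodes the endonuclease that cuts the precursor of the small-subunit ribosomal RNA, *Cfdp1* a protein related to a subunit of the H2A.Z exchange complex and *Fanca* a component of the Fanconi anaemia core complex for DNA crosslink repair.

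Depth and identity of the libraries were checked first. The 27 ESC libraries from the Tg-X;8 clones and from Tg-X held 991212 to 3193405 allele-specific reads, and all 9 members were listed in each of them. Xist was listed in 5 of 5 treated Tg-X;8 libraries at 508 to 1870 CPM (gene counts scaled to a common sum of all gene counts) and in 5 of 6 untreated ones at 24.1 to 240 CPM, with the highest untreated value in clone 267. In treated Tg-X libraries Xist was at 509 to 2125 CPM. Of 9 markers of naive ESCs 8 were listed in each of the 27 libraries, among them *Pou5f1*, *Nanog* and *Sox2*, while 6 of 7 neuronal markers, 3 of 5 primitive endoderm markers, 4 of 5 fibroblast markers and 1 of 3 mesoderm markers were listed in none. Genes are listed only from 8 allele-specific reads on, so an unlisted marker is not shown to be unexpressed. No pair of replicate libraries was within counting noise, since the chi-square per degree of freedom between replicates was 2.51 or more.

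The extent of the trisomy was taken from the untreated Tg-X libraries alone. In them the median Cast/all ratio was 0.494 over 95 genes up to *Nr2c2ap* and 0.660 over 202 genes from *Rfxank* onwards, with the change at 70.1 Mb of chromosome 8. All members lie beyond it, between 10.6 Mb (*Gab1*) and 53.1 Mb (*Fanca*) from this boundary. The trisomic part had a median of 0.655 to 0.662 in the 6 untreated Tg-X;8 libraries and of 0.637 to 0.647 in the 5 treated ones. In Tg-X clones it was 0.654 to 0.670 without and 0.651 to 0.664 with doxycycline.

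In mm10 coordinates (RefSeq annotation of GRCm38.p6), *Gab1* (gene ID 14388) spans chr8:80764431-80880519, *Zfp330* (30932) chr8:82763618-82774145 and *Sall1* (58198) chr8:89027242-89044162, all on the minus strand. *Cyb5b* (66427) lies on the plus strand at chr8:107150661-107187470. *Nob1* (67619) follows at chr8:107412489-107425038, *Dhodh* (56749) at chr8:109593244-109608699 and *Cfdp1* (23837) at chr8:111766682-111854337. *Gcsh* (68133) at chr8:116981967-116993498 and *Fanca* (14087) at chr8:123266294-123318651 are the most distal, and these 5 are on the minus strand. The deposited tables place each gene by an exon, for example exon 2 of *Nob1* at chr8:107424738-107424870, which is coding throughout, and the last exon of *Cyb5b* at chr8:107183578-107187470, which is coding in part. *Fanca* shares its 3′ end with *Zfp276* on the opposite strand, and reads of both cannot be told apart where the counting ignores strand.

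The promoters of 3 members are shown because they span the range of responses described next: *Zfp330* had the largest and *Nob1* the smallest mean fall of the Cast/all ratio, and *Gcsh* the most negative change of Cast reads. Each is the RefSeq sequence of GRCm38.p6 from 250 bases before to 50 bases after the transcription start, 5′ to 3′ on the gene's minus strand, with CG dinucleotides in capitals. The windows are chr8:82774096-82774395 for *Zfp330*, chr8:107424989-107425288 for *Nob1* and chr8:116993449-116993748 for *Gcsh*.
Zfp330: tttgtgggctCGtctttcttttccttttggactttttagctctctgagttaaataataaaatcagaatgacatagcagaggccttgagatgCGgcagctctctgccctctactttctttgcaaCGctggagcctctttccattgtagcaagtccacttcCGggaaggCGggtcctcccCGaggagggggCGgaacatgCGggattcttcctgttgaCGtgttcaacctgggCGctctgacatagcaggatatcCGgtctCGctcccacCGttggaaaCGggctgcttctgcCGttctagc
Nob1: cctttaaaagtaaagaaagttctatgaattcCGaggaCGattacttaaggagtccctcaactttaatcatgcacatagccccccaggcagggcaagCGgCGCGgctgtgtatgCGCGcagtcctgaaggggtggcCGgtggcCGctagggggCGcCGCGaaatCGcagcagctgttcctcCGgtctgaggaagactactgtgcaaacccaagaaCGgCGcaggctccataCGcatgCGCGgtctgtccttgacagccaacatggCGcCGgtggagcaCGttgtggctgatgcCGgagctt
Gcsh: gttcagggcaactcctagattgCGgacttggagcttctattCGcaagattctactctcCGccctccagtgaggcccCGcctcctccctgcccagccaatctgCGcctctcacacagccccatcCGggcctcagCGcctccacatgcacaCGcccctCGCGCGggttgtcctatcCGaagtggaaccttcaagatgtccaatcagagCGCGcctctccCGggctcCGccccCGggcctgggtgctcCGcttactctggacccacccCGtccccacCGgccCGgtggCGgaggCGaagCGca
These windows held 15 CG in *Zfp330*, 23 in *Nob1* and 24 in *Gcsh*, against a median of 7 over 32851 promoters in the RefSeq table. Among 166 of 207 trisomic genes with an entry the median was 24, and over 8 members with an entry it was 23.5 when the highest window of each gene was taken. The GC box GGGCGG, searched on both strands, was present in 8 of 11 member windows and in 35.7% of all promoters. The 11 windows belong to 8 members, since some members have several windows. The share of trisomic genes with the GC box was not determined. Whether it is more frequent in the members than in those genes is therefore not shown. Of the windows printed, those of *Zfp330* and *Gcsh* held the GC box and that of *Nob1* did not.

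*Zfp330* had the largest mean fall among the members upon doxycycline in the Tg-X;8 clones. Its Cast/all ratio was 0.586 and 0.645 without and 0.458 with doxycycline in clone 203b, 0.659 and 0.624 without and 0.517 and 0.527 with doxycycline in clone 267, and 0.539 and 0.592 without and 0.498 and 0.519 with doxycycline in clone 339. Treated libraries lay below the untreated ones of their clone in all 3 clones, and the mean fall was 0.111 ± 0.0512 (SD between 3 clones). The single treated library of clone 203b rests on 76 Cast and 90 129 reads (95% Wilson interval of the ratio 0.384 to 0.534, counting error only).

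*Gab1* and *Sall1*, the signalling adaptor and the transcription factor, fell less. *Gab1* had ratios of 0.628 and 0.624 without and 0.5996 with doxycycline in clone 203b, 0.607 and 0.638 without and 0.503 and 0.515 with doxycycline in clone 267, and 0.591 and 0.618 without and 0.503 and 0.550 with doxycycline in clone 339. The fall was 0.113 in clone 267 and 0.0267 in clone 203b, where the Wilson interval of the treated library, 0.557 to 0.641 on 527 reads, includes both untreated values. For *Sall1* the ratios were 0.568 and 0.628 without and 0.518 with doxycycline in clone 203b, 0.603 and 0.516 without and 0.472 and 0.519 with doxycycline in clone 267, and 0.496 and 0.565 without and 0.447 and 0.459 with doxycycline in clone 339. *Sall1* had the most even fall, 0.0642 to 0.0800 over the 3 clones, but its treated and untreated libraries overlapped in clone 267.

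Among the genes of mitochondrial enzymes, *Dhodh* fell most. Its ratios were 0.642 and 0.627 without and 0.577 with doxycycline in clone 203b, 0.744 and 0.590 without and 0.575 and 0.561 with doxycycline in clone 267, and 0.671 and 0.700 without and 0.532 and 0.567 with doxycycline in clone 339. The mean fall was 0.0975 ± 0.0387 (SD between 3 clones), although the untreated libraries of clone 267, with 160 and 166 reads, differed by more than this. *Gcsh* had 0.645 and 0.698 without and 0.564 with doxycycline in clone 203b, 0.676 and 0.647 without and 0.560 and 0.651 with doxycycline in clone 267, and 0.677 and 0.732 without and 0.622 and 0.649 with doxycycline in clone 339. The groups overlapped in clone 267. *Gcsh* reads must be read with care, since its summed allele reads exceeded its gene count in 50 of 52 libraries, as happens where a read over several polymorphisms is counted at each of them. *Cyb5b* had 0.664 and 0.616 without and 0.580 with doxycycline in clone 203b, 0.564 and 0.642 without and 0.551 and 0.583 with doxycycline in clone 267, where the groups overlapped, and 0.735 and 0.718 without and 0.593 and 0.632 with doxycycline in clone 339. Its fall of 0.114 in clone 339 was the largest of this gene and that of 0.0357 in clone 267 the smallest.

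The genes of RNA processing, chromatin and DNA repair had no overlap between conditions within any Tg-X;8 clone. The same held for *Gab1*, *Zfp330* and *Dhodh*, and for 8.70% of 207 trisomic genes. *Nob1* had 0.644 and 0.652 without and 0.584 with doxycycline in clone 203b, 0.665 and 0.683 without and 0.652 and 0.649 with doxycycline in clone 267, and 0.751 and 0.744 without and 0.673 and 0.709 with doxycycline in clone 339. Its mean fall of 0.0481 ± 0.0218 was the smallest of the members, and in clone 339 it stayed above 0.667 in both treated libraries. *Cfdp1* had 0.681 and 0.638 without and 0.593 with doxycycline in clone 203b, 0.662 and 0.690 without and 0.635 and 0.622 with doxycycline in clone 267, and 0.634 and 0.662 without and 0.561 and 0.595 with doxycycline in clone 339. *Fanca* had 0.624 and 0.580 without and 0.570 with doxycycline in clone 203b, 0.671 and 0.606 without and 0.524 and 0.525 with doxycycline in clone 267, and 0.663 and 0.692 without and 0.590 and 0.599 with doxycycline in clone 339. In clone 267 *Fanca* was read at low depth, with 49 Cast and 24 129 reads in an untreated library.

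**Figure D1:**
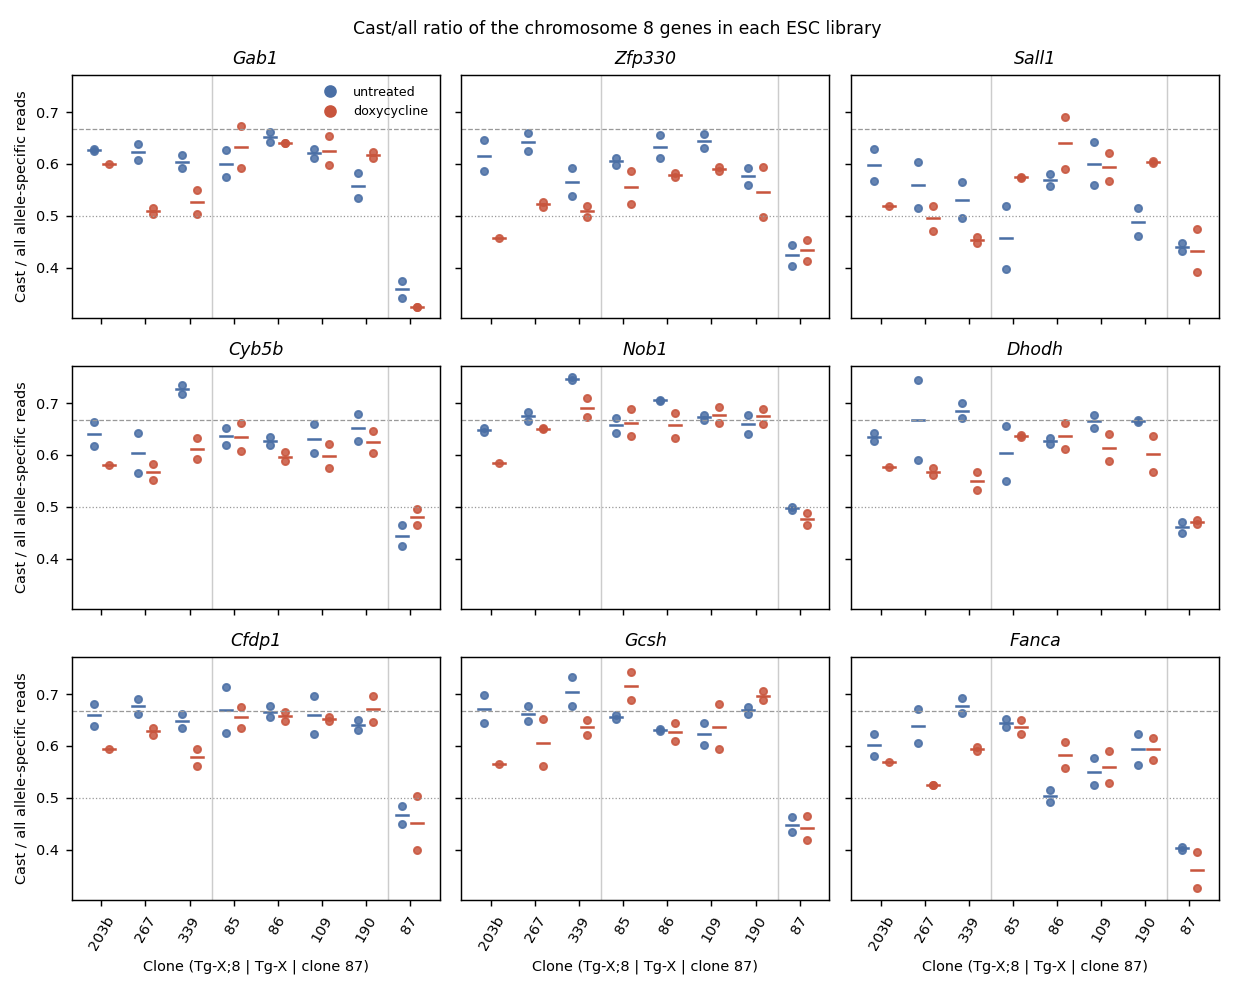
Cast/all ratio (y axis) of each gene in every ESC library of Tg-X;8, Tg-X and clone 87 (x axis, clones), untreated in blue and doxycycline in red; points are libraries, bars are means per clone, and dotted and dashed lines mark 0.5 and 0.667. In each of clones 203b, 267 and 339, treated points lie below untreated ones without overlap for 6 of the 9 genes. This held for 8.70% of 207 trisomic genes, and the 9 were chosen by their fall in these clones. Clone 203b has 1 treated library. Clone 87 lies at or below 0.503 throughout.

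Expressed as Cast per 129 reads, the mean loss over the 3 Tg-X;8 clones ranged from 19.4% for *Nob1* to 35.5% for *Zfp330*, with 33.3% for *Dhodh* and 23.1% to 28.3% for the other 6 members. The loss nearest to 50% was that of *Zfp330* in clone 203b, at 47.3%. None of the 9 fell by at least 0.1 in each of the 3 clones, and 0% of the 207 trisomic genes compared did. Thus "silenced" describes a partial loss of Cast output in bulk RNA here. By RNA FISH the study saw an Xist-coated chromosome in only part of the induced cells. These losses therefore do not give the loss within a cell. The ratio was lower in each of the 3 clones for 9 of 9 members, by the choice of the list, and for 32.4% of these 207 genes. Treated libraries lay below untreated ones without overlap in every clone for 6 of 9 members and for 8.70% of the genes. By mean fall the members stood between rank 3 (*Zfp330*) and rank 46 (*Nob1*) of 207.

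The size of the fall differed between clones and the order of the genes was not the same in each. The median fall over the 9 members was 0.0646 for clone 203b, 0.0642 for 267 and 0.0777 for 339, beside medians of 0.0215, 0.0107 and 0.0220 over the 207 genes. *Zfp330* had the largest fall in clones 203b and 267 but, at 0.0564, the second smallest in clone 339. *Dhodh* led in clone 339 with 0.135. Without clone 203b, whose treated value is a single library, the median over the members of the mean fall was 0.0750 instead of 0.0740.

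The reads of each allele were then given as CPM of all allele-specific reads in that library. Averaged over the 3 clones, Cast CPM were lower upon doxycycline for 9 of 9 members, with a median log2 change of -0.33, and lower in every clone for 5 of them, *Cyb5b*, *Nob1*, *Dhodh*, *Cfdp1* and *Gcsh*. Of the 207 trisomic genes 67.1% had a lower mean and 28.5% were lower in every clone, with a median of -0.13. In Tg-X clones Cast CPM had a median log2 change of -0.14 over the members and of 0.07 over the 207 genes. There the Cast CPM of *Gcsh* (-0.41), *Cfdp1* (-0.36), *Zfp330* (-0.35) and *Cyb5b* (-0.18) were lower in all 4 clones as well, beside 14.0% of the 207 genes, and the difference between both sets of clones was not tested. In the Tg-X;8 clones the change was largest for *Gcsh* (log2 -0.57 ± 0.14, SD between 3 clones) and *Zfp330* (-0.51 ± 0.47). For *Fanca*, *Sall1* and *Gab1* the mean changes of -0.04, -0.12 and -0.13 were smaller than their SD between clones of 0.51, 0.42 and 0.38. In these 3 genes the mean change of 129 CPM was log2 0.39, 0.33 and 0.30, and Cast CPM were lower in 1 clone for *Fanca* and *Sall1* and in 2 for *Gab1*. Over the 9 members the median change of 129 CPM was 0.15, and 0.04 when scaled to the summed gene counts, a scaling that puts the median Cast change at -0.45.

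**Figure D2:**
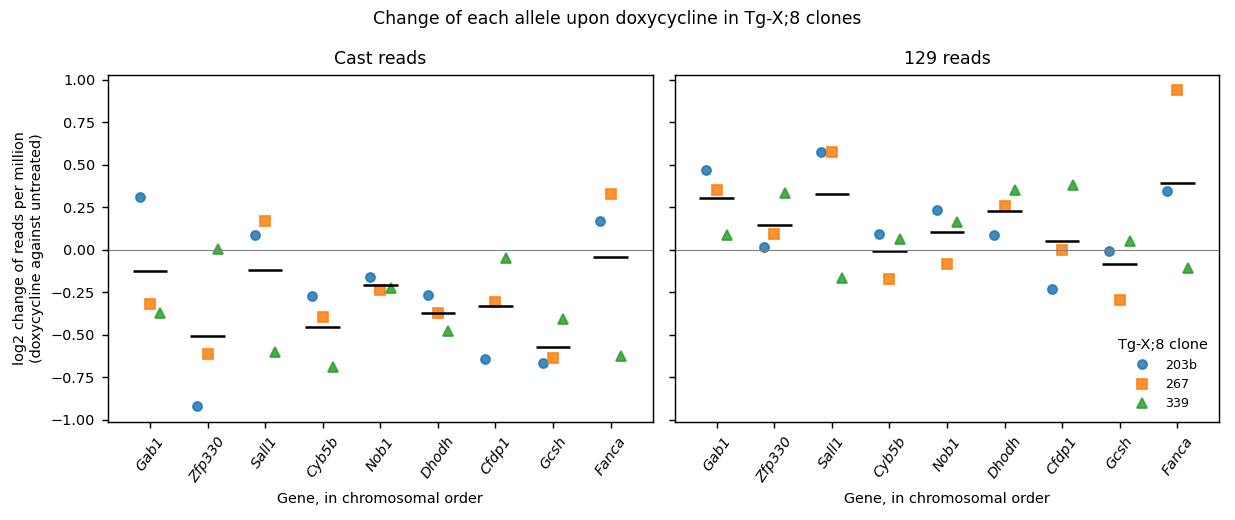
log2 change of Cast reads (left) and 129 reads (right), as CPM of allele-specific reads, upon doxycycline (y axis) for each gene (x axis) in the Tg-X;8 clones (symbols: 203b, 339, 267), with black bars for the mean of the clones. Cast changes have a mean below 0 for every gene, with clones above 0 for *Gab1*, *Zfp330*, *Sall1* and *Fanca*, and 129 changes reach 0.94 for *Fanca* in clone 267.

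Total gene counts were compared in the same clones. In the edgeR fit over Tg-X;8 libraries the log2 change of the members ranged from -0.35 (*Cyb5b*, SE 0.08, and *Gcsh*, SE 0.07) to 0.13 (*Sall1*, SE 0.09), with a median of -0.14 beside -0.06 over 244 trisomic genes, of which 7.38% were called lower and 1.64% higher. *Cyb5b* was at 222 to 332 CPM in 6 untreated and 208 to 231 CPM in 5 treated libraries, with a small overlap. *Gcsh* was at 128 to 156 CPM without and 106 to 122 CPM with doxycycline, without overlap between the pooled conditions. For bulk RNA, fewer transcripts in each cell and a change in a fraction of the cells cannot be told apart.

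Position along chromosome 8 was compared next. *Dhodh*, 0.721 Mb from the transgene of clone 267, fell by 0.0991 there, but *Gab1* and *Zfp330*, at 29.4 and 27.6 Mb, fell by 0.113 and 0.120. *Nob1*, 2.90 Mb from the same transgene, had the smallest fall in that clone, 0.0234. In clone 203b *Fanca* was the nearest member, at 0.923 Mb, and fell by 0.0322, while *Zfp330* at 39.6 Mb fell by 0.158. The nearest member was thus not the one with the largest fall in either clone, and no integration site was used for clone 339. Over all trisomic genes the median fall in clone 267 was 0.0202 within 5 Mb (38 genes) and 0.0104 beyond 30 Mb (47 genes), and in clone 203b 0.0124 within 5 Mb (46 genes) and 0.0249 beyond 30 Mb (93 genes).

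**Figure D3:**
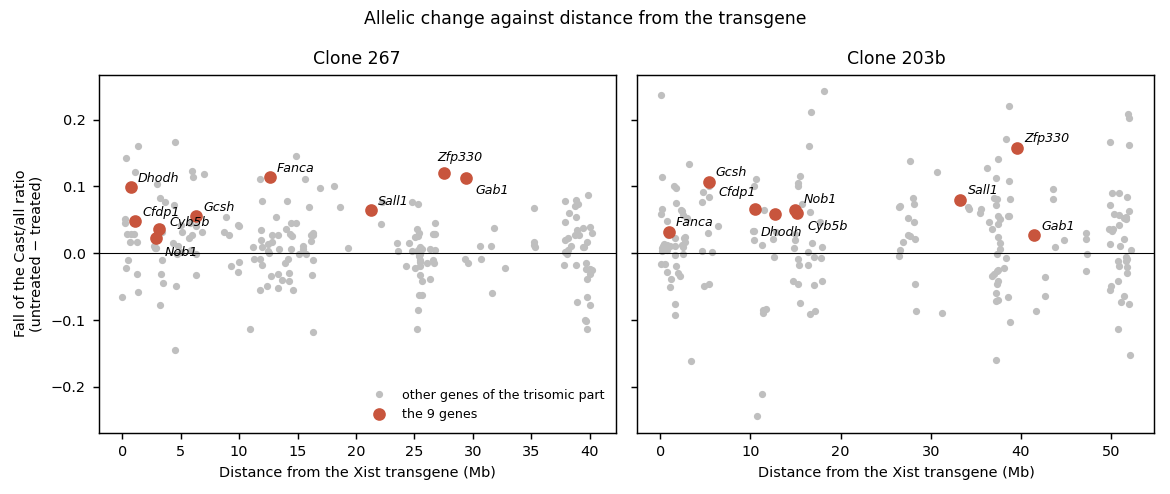
Fall of the Cast/all ratio upon doxycycline (y axis) against distance from the transgene in Mb (x axis) in clones 267 and 203b; red points are the 9 genes and grey points the other trisomic genes. The nearest of the 9 genes, *Dhodh* at 0.721 Mb in clone 267 and *Fanca* at 0.923 Mb in clone 203b, are not the highest red points.

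The nearest genes on either side among the 207 listed in all 27 libraries with a mean of at least 50 reads on both alleles, 17 in all, had a median of the mean fall of 0.00921, with a range from -0.0414 (*Chd9*, distal of *Sall1*) to 0.0836 (*Bcar1*, proximal of *Cfdp1*). In 1 of 18 pairs the neighbour fell more than its member, *Bcar1* against *Cfdp1* with 0.0614. *Nqo1*, 21.5 kb from *Nob1* by the listed exons, fell by 0.0356 beside 0.0481, and *Atmin*, 32.8 kb from *Gcsh*, had -0.0117 beside 0.0774. Genes below these limits can lie closer. Since the members were selected for their fall and the neighbours were not, this difference is a description. The 5 neighbours *Heatr3*, *Nfat5*, *Nqo1*, *Dhx38* and *Bcar1* were lower in each of the 3 clones, 5 of 17 beside 32.4% of the 207 genes. *Dhx38* had a mean fall of 0.0314 in Tg-X;8 and of 0.0374 in Tg-X clones.

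The trisomic genes most like the median profile of the members over the 7 Tg-X;8 and Tg-X clones, by Euclidean distance, were *Cdh1* (distance 0.0682), *Nup93* (0.0691), *Itgb1* (0.0768), *Nqo1* (0.0780) and *Got2* (0.0792). Their mean falls in Tg-X;8 clones were 0.0951, 0.0697, 0.0742, 0.0356 and 0.0399. Of the members, *Cfdp1* lay nearest to this profile at 0.0303 and *Sall1* farthest at 0.171.

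**Figure D4:**
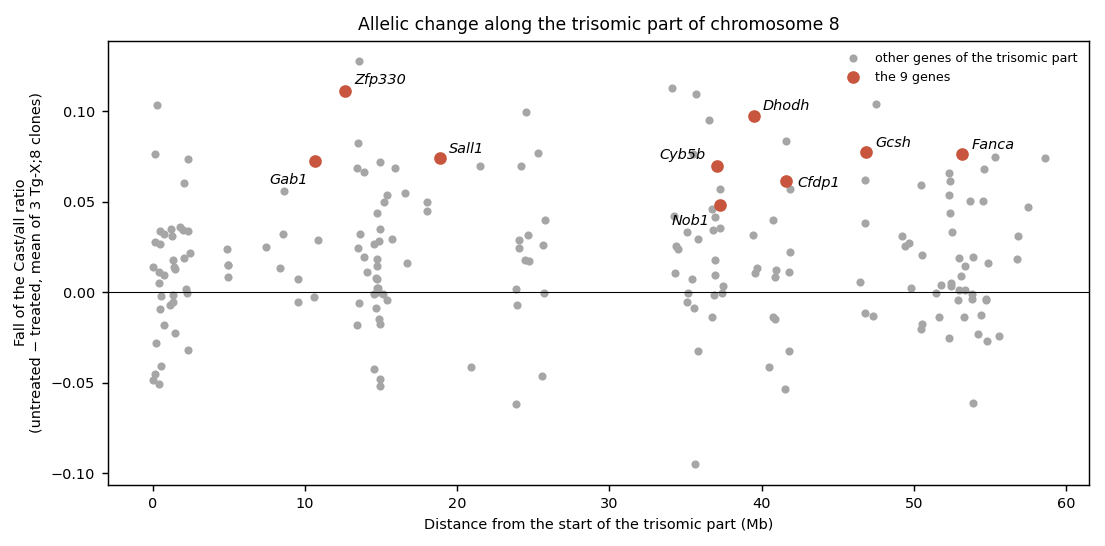
Mean fall of the Cast/all ratio over the 3 Tg-X;8 clones (y axis) against distance from the start of the trisomic part in Mb (x axis), for the 9 genes in red and the other 198 trisomic genes in grey. The 9 genes lie between 10.6 and 53.1 Mb, among grey points that fall on both sides of 0.

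Tg-X clones show what the same karyotype does upon doxycycline with Xist on the intact Cast X. The choice of the members set these clones beside Tg-X;8, so their allelic values here are a description as well, and nothing is read from how many passed. The log2 change of the Cast:129 ratio in the edgeR fit ranged from -0.26 (*Zfp330*, SE 0.09) to 0.42 (*Sall1*, SE 0.11). This fit over 5770 genes placed 1 of 9 members, *Sall1*, past its threshold as higher and none as lower, where 1.20% of all genes were higher and 2.41% lower. Of 240 trisomic genes 1.67% were higher and 0.417% lower. The median log2 change of the members was -0.01, beside 0.03 over 240 trisomic genes.

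*Sall1* was at 0.396 to 0.642 (median 0.538) in 8 untreated and 0.568 to 0.690 (median 0.596) in 8 treated Tg-X libraries. Its ratio was higher in treated libraries without overlap in clones 85, 86 and 190 and changed by -0.00657 in clone 109. The share of trisomic genes that rose without overlap was not determined. The lowest untreated value, 0.396 in clone 85, rests on 111 reads. *Sall1* was not past the threshold with DESeq2, nor in 7 of 16 edgeR fits without 1 library. These were the fits without any 1 of the 4 libraries of clone 190, the second untreated library of clone 85, the first untreated or the second treated library of clone 86. The Cast/all ratio was lower in all 4 Tg-X clones for 2 of 9 members, *Zfp330* and *Cyb5b*, and for 7.73% of 207 trisomic genes. Treated libraries lay below untreated ones without overlap in 8 of 36 pairs of a member and a Tg-X clone. The share over trisomic genes was not determined for this count either. *Zfp330* was lower by 0.0299 to 0.0546 in these clones. Its mean fall in the Tg-X clones was 0.0472 ± 0.0117 (SD between 4 clones), beside 0.111 in the Tg-X;8 clones. *Dhodh* fell without overlap by 0.0508 in clone 109 and 0.0636 in clone 190. It rose by 0.0334 in clone 85 and 0.0091 in clone 86. The mean fall of *Dhodh* in the Tg-X clones was 0.0180 ± 0.0467 (SD between 4 clones), beside 0.0975 in the Tg-X;8 clones.

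Total counts of 5 members changed in Tg-X clones. *Gab1* rose 1.71-fold (log2 0.77, SE 0.07, edgeR adjusted p = 3.99e-07), from 195 to 277 CPM in untreated to 348 to 465 CPM in treated libraries, without overlap. *Sall1* rose 1.68-fold (log2 0.75, SE 0.14, edgeR adjusted p = 0.000402), from 81.4 to 252 CPM to 239 to 409 CPM. *Gcsh* fell by 0.47 (SE 0.08, edgeR adjusted p = 0.00013), *Cfdp1* by 0.43 (SE 0.11, adjusted p = 0.00377) and *Cyb5b* by 0.20 (SE 0.06, adjusted p = 0.011) on the log2 scale. Of 9 members 2 rose and 3 fell, where 21.0% of 5742 genes rose and 20.0% fell. Of 240 trisomic genes 22.9% rose and 17.1% fell. The choice rested on Cast reads but named these clones and their gene counts for comparison, so these tests are not fully independent of it. The summed level of the 9 naive ESC markers was 3565 to 5790 CPM (median 4700) in untreated and 5258 to 6788 CPM (median 5895) in treated Tg-X libraries, and its part in the rise of *Sall1* and *Gab1* was not tested. In Tg-X;8 clones the log2 change of total counts was 0.05 for *Gab1*, 0.13 for *Sall1*, -0.35 for *Gcsh*, -0.19 for *Cfdp1* and -0.35 for *Cyb5b*, so that the 3 genes that fell in Tg-X clones had values below 0 in both sets. The difference between both sets of clones was not tested.

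The extra Cast copy itself can be seen in untreated cells. Against 2 untreated libraries of clone 87, the Cast:129 ratio of 8 untreated Tg-X libraries was higher for 8 of 9 members (edgeR, Benjamini-Hochberg adjustment over 6109 genes), where 5.17% of all genes and 71.2% of 243 trisomic genes were higher and 1.21% of all genes lower. The fold change of the ratio ranged from 2.02 (*Fanca*, adjusted p = 0.00252) to 2.84 (*Gab1*, adjusted p = 2.47e-08) for these 8 members, with 2.24 for *Gcsh*, 2.20 for *Zfp330* and 2.12 for *Dhodh*. *Sall1* had 1.51 (log2 0.59, SE 0.20, adjusted p = 0.079). The median over the members was 2.16, beside 2.00 over the trisomic genes. Clone 87 is 1 clone, so these p-values measure the spread between libraries. The trisomic part was set by the Cast/all ratio of these same Tg-X libraries. A higher ratio in it was thus largely given in advance. These p-values are no separate support for the extra copy. For *Fanca* the call was lost without the first untreated library of clone 87 (log2 0.98, edgeR adjusted p = 0.339).

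Clone 87 also shows that the members do not start from equal alleles. With 1 copy of each allele, *Nob1* was at 0.493 and 0.500, whereas *Gab1* was at 0.341 and 0.375, *Fanca* at 0.400 and 0.406, and *Zfp330* at 0.403 and 0.444. The other 5 members had means from 0.440 (*Sall1*) to 0.467 (*Cfdp1*). A doubled Cast output of clone 87 would give 0.527 for *Gab1*, 0.574 for *Fanca* and 0.664 for *Nob1*. The untreated Tg-X;8 means were 0.618, 0.639 and 0.690, and the treated means 0.534, 0.562 and 0.653. For *Zfp330* the treated libraries reached 0.458 to 0.527 against 0.595 for a doubled output.

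Total counts were compared between the same libraries. *Gab1* (log2 0.67, SE 0.15, edgeR adjusted p = 0.0298) and *Cyb5b* (log2 0.59, SE 0.12, edgeR adjusted p = 0.0248) were higher in untreated Tg-X clones than in clone 87, 2 of 9 members, where 24.3% of trisomic genes and 1.99% of all genes were higher and 0.971% of all genes lower. The members had a median fold of 1.44, beside 1.49 over the trisomic genes. *Sall1* (log2 -0.09, SE 0.31) and *Gcsh* (-0.10, SE 0.21) had values below 0. With libraries summed per clone neither call was kept (edgeR adjusted p = 0.553 for *Gab1* and 0.548 for *Cyb5b*), and both were lost without either library of clone 87 (adjusted p from 0.159 to 0.337).

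**Figure D5:**
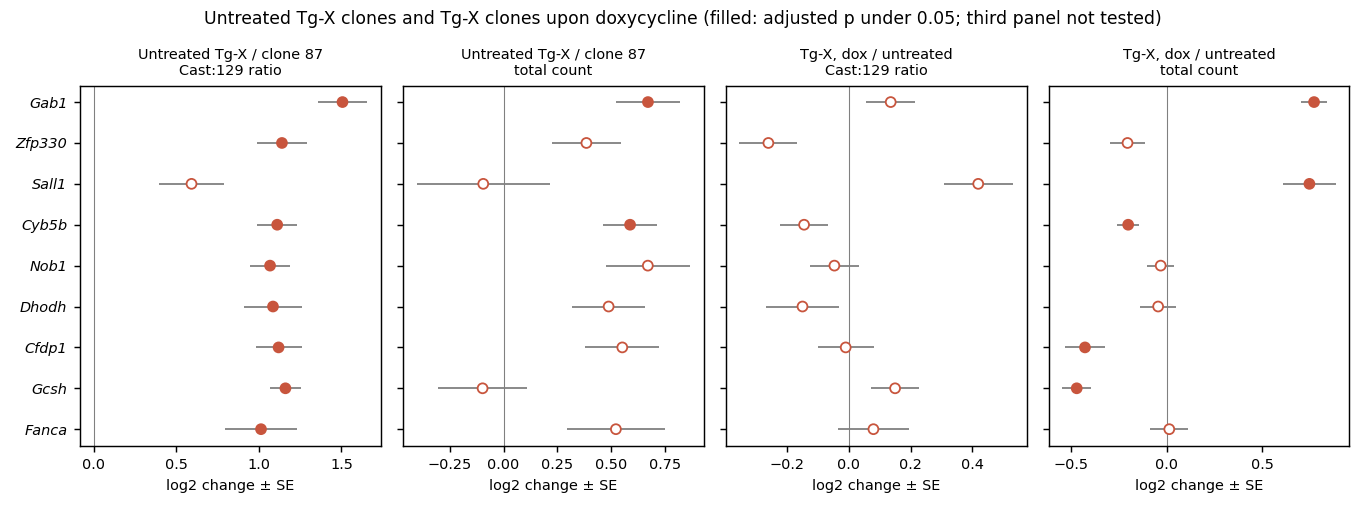
log2 change with SE (x axis) of each gene (y axis) from left to right in untreated Tg-X against clone 87 for the Cast:129 ratio and for total count, and in Tg-X clones upon doxycycline for both; filled points have an adjusted p under 0.05, and the third panel is a description without a test. In the first panel 8 of 9 points are filled and all lie above 0, beside 71.2% of 243 trisomic genes called higher. This was largely given in advance, since the same Tg-X libraries set the trisomic part. In the fourth 2 filled points lie above and 3 below 0, beside 22.9% and 17.1% of 240 trisomic genes. The fourth test is not fully independent of the choice of the genes.

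Clones with the transgene on chromosome 12 had an elevated Cast share as well. In untreated clones 228 and 273 and line 38 the median ratio was 0.655 to 0.671 over the trisomic part and 0.667 to 0.677 over the rest of chromosome 8. In these 3 the excess of Cast was thus not limited to the distal part. Untreated clone 160 had 0.657 to 0.662 over the trisomic part but 0.504 to 0.509 over the rest. Its excess of Cast was limited to the distal part. Upon doxycycline the mean ratio of clones 228 and 273 and line 38 changed by -0.0337 (*Dhodh*), -0.0296 (*Zfp330*) and -0.0179 (*Nob1*). It changed by 0.0307 for *Gcsh* and by 0.0114 or less for the other 5. The fall was 0.0153 to 0.0441 for *Dhodh* and 0.00839 to 0.0592 for *Zfp330* over these 3 clones. No share over all trisomic genes stands beside these values, so they are a description. *Sall1* counts ranged from 45.8 to 428 CPM over 6 untreated libraries of these clones. The 4 neuron libraries had member ratios between 0.573 (*Sall1*) and 0.704 (*Nob1*) on 689 to 5904 reads, but all 9 naive ESC markers were listed in each of them, at a summed 1142 to 2179 CPM, beside 3 of 7 neuronal markers.

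Levels per length, as RPKM of the gene counts over the joined exons, place the members in an order. In 6 untreated Tg-X;8 libraries *Cfdp1* (121 ± 7.42, SD) and *Gcsh* (114 ± 9.48) were highest, followed by *Nob1* (92.3 ± 12.7), *Zfp330* (81.1 ± 13.5) and *Cyb5b* (64.8 ± 10.4). *Sall1* (36.1 ± 9.80), *Dhodh* (26.4 ± 2.33), *Gab1* (17.4 ± 1.77) and *Fanca* (11.8 ± 2.36) were lowest. *Cfdp1* and *Gcsh*, *Nob1* and *Zfp330*, and *Sall1* and *Dhodh* differed by less than the larger SD of each pair. The gene with the largest mean fall, *Zfp330*, thus stood in the middle of this order.

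Genes that work with the members were examined through total counts, as 8 lists of 78 genes. In Tg-X;8 clones 54 were tested, and edgeR called 2 higher and 1 lower upon doxycycline, where 3.68% of 6088 genes were higher and 2.83% lower. The glycine decarboxylase *Gldc*, partner of *Gcsh*, rose 1.31-fold (log2 0.39, SE 0.09, adjusted p = 0.0185) and *Tbx3*, a factor of the naive network listed with *Sall1*, 1.33-fold (log2 0.41, SE 0.10, adjusted p = 0.0231). *Ctps*, the CTP synthase downstream of *Dhodh*, fell by 0.26 on the log2 scale (SE 0.06, adjusted p = 0.0213). None of 6 Gab1 signalling genes, 9 Fanconi anaemia genes, 3 cytochrome b5 genes, 9 genes of small-subunit maturation and 8 genes of the SRCAP and p400 complexes was called. With the replicate block none of the 54 was called.

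In Tg-X clones 53 genes of the lists were tested, and 12 were higher and 11 lower, beside the 21.0% and 20.0% of all genes. *Gldc* (log2 0.68, SE 0.09, edgeR adjusted p = 2.37e-05) and *Tbx3* (0.73, SE 0.12, adjusted p = 0.000209) were higher and *Ctps* (-0.48, SE 0.07, adjusted p = 5.3e-05) was lower there too. Of the list with *Sall1*, 4 of 7 were higher, *Sall4*, *Esrrb*, *Tbx3* and *Klf4*, and none lower. In the pyrimidine list 4 of 8 were lower, *Ctps*, *Cmpk1*, *Nme1* and *Nme2*, and *Tyms* was higher. Of 9 Fanconi genes *Brca2*, *Fancm* and *Fancg* were higher and *Ube2t* and *Fance* lower, while *Fanca* itself had a log2 change of 0.01 (SE 0.10).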

How the data were processed

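RNA-seq libraries of ESC clones and of neurons were used, 52 of 60; the 8 libraries of clone 292 were left out because their titles and cell type labels disagree. Per the labels and the study's methods, the authors aligned reads with TopHat2 2.0.6 to 129 and Cast genomes built on mm10 and counted with HTSeq 0.6.1 and SAMtools. The deposited counts are Cast and 129 reads summed over the polymorphisms of a gene, so that a read can count more than once, and a gene count. The deposited fraction is Cast reads over both alleles. Genes are listed from 8 allele-specific reads on, and the strand setting is not given in the sources used here.

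The 9 genes, the partner lists and the markers were chosen with earlier results of these data known. Named genes are these 9, their nearest neighbours among 207 trisomic genes, the 5 trisomic genes most alike and the partner lists. These 207 genes were those listed in all 27 ESC libraries from Tg-X;8 and Tg-X clones and averaging 50 or more reads on both alleles together. Ratios were averaged over libraries, then clones. Tests were quasi-likelihood tests of edgeR 4.0.16 (R 4.3.3), with TMM scaling for total counts. Benjamini-Hochberg adjustment was over all genes tested, with a threshold of 0.05. The tests upon doxycycline had a clone term for total counts and clone by allele terms for ratios. The comparisons of untreated clones had no clone term, so libraries of the same clone counted as independent there. Steps were tested on simulated data. DESeq2 1.42.0, RLE scaling, a mean of at least 50 reads, the replicate block, sums per clone and leaving out each library were the alternatives. The study's text calls the libraries of a clone and condition biological replicates; p-values measure the spread between them and not between further clones. Allele-specific reads numbered 991212 to 3193405 per Tg-X;8 or Tg-X library, and Wilson intervals cover counting error only.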

Additional observations from a re-analysis of the deposited data

Results flagged for a closer look

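Of 108 groups of 4 to 10 libraries examined, 8 had a library far from the others, where chance gives about 1 in 20. The treated library of clone 203b stood apart from the other 4 treated Tg-X;8 libraries in the counts of 3 genes. *Gab1* was highest there at 362.875 CPM, with the next at 232.704. *Zfp330* was lowest at 79.5418 CPM, with the next at 121.393, and *Cfdp1* was lowest at 248.225 CPM, with the next at 333.029. Without this library the median of the mean fall over the 9 genes was 0.0750 instead of 0.0740.

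In Tg-X clones, the second treated library of clone 86 had the highest *Sall1* Cast/all ratio of 8, 0.689796. The second treated library of clone 190 was highest for *Sall1*, at 408.815 CPM, and for *Dhodh*, at 96.1156 CPM. The second untreated library of clone 85 had the lowest *Dhodh* ratio, 0.55, with the next at 0.621. *Cfdp1* was highest in the second untreated library of clone 109, at 519.657 CPM.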

How the results depend on the processing

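The falls of the 9 genes in Tg-X;8 clones were positive in 126 of 126 alternatives (0.0398 to 0.123), and their median was 0.0660 to 0.0822 without single libraries and 0.0719 with the replicate block. The 9 genes were chosen by this fall in these libraries. Its positive sign was thus largely given in advance and is no separate support for it. Same-numbered libraries correlated by -0.0261 to 0.0202 in Cast/all deviations and by -0.0185 to 0.304 in expression, over 0.1 in 5 of 6 clones but not in clone 85, so the numbers were not taken as pairs. With the block, Tg-X;8 total counts gave 83 genes higher and 65 lower instead of 224 and 172, and partner genes 0 and 0. Scaled to gene counts, the median change was -0.455 for Cast and 0.0390 for 129. DESeq2 called 0 members and 30 genes higher in the Tg-X allelic test, 4 partner genes higher and 2 lower in Tg-X;8, 33 genes lower in the untreated allelic test, and in the untreated total test 4 members higher, 279 genes higher and 123 lower instead of 121 and 59. Sums per clone gave 42 genes lower in the allelic and 0 members, 0 genes higher and 0 lower in the total test. Without single libraries, Tg-X allelic calls were 0 to 1 members higher and 0 to 1 lower, with 47 to 88 and 113 to 163 genes. Tg-X total calls were 2 to 2 and 3 to 4 members, with 1026 to 1280 and 1011 to 1231 genes. Tg-X;8 calls were 0 to 4 and 0 to 2 partner genes, with 123 to 297 and 91 to 305 genes. Untreated allelic calls were 7 to 9 and 0 members, with 160 to 327 and 18 to 94 genes, and untreated total calls 0 to 2 and 0 members, with 1 to 165 and 10 to 85 genes. *Sall1* was called in the untreated allelic test without the first library of clone 190 or the second of clone 85 (edgeR adjusted p = 0.0342 and 0.0231). The cause was not tested. The replicate block was not run for the untreated comparisons. Low read numbers limit *Fanca* and *Dhodh* most.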
